A study of Mus musculus with 4 samples.

Results

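Transcript levels were compared directly between M32 and M83, 2 mutant lines of mouse colon tumour cells, without using the unmutated control as the reference. M32 and M83 are 2 of the 4 samples of the series, each with 1 library. All 41457 genes of the count table entered, of which 19493 had a count in either line. Ratios are described for the 11028 genes with at least 50 counts in the higher of the lines, called measured genes here. The lines were made with the mutagen ENU (N-ethyl-N-nitrosourea), which alkylates DNA and leaves mainly base substitutions, and the labels give M8, M32 and M83 the same genotype label. They do not name the parent tumour line, the mutations, the dose, or whether a line is 1 clone. Control and line M8 had the same tissue label and the same RPMI culture, and appear below only as values beside those of M32 and M83. The series' design text speaks of triplicates, yet there is 1 column per sample, so neither the spread between cultures nor a p-value can be given for any difference.

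M32 held 27312207 counts over 17234 genes, and M83 held 28011773 counts over 17691 genes. Mitochondrially encoded genes took 3.10% of the counts in M32 and 2.50% in M83. Summed over 7 fibroblast markers, M32 had 87695 counts and M83 77433, nearly all from Col1a1 and Col1a2, while Thy1 was at 0 and Lum and Dcn were under 50 counts in both. The labels give colon as the tissue. Of 9 epithelial and intestinal markers, the defining markers Epcam, Cdh1 and Cdx2 were at 0 in both lines, Vil1, Krt8, Krt19 and Lgals4 had at most 33 counts, and Krt18 (992 in M32 and 911 in M83) and Krt20 (1008 and 3667) were read. At this depth a count of 0 allows up to 0.110 CPM (a gene's counts relative to the library total) in M32 and 0.107 CPM in M83. Of 12 leukocyte markers, 4 were at 0 in both lines and only Cd8a passed 50 counts, with 4558 in M32 and 5163 in M83. In bulk RNA, fewer cells of a type and less RNA per cell cannot be told apart.

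As background, cells make cholesterol from acetyl-CoA through the mevalonate pathway, and its enzymes are transcribed together by SREBP2, which is released to the nucleus when membrane sterol is low. Growth factors of the EGF family signal through the ERK kinases, which switch on immediate early genes and the phosphatases that limit them. Collagens and small leucine-rich proteoglycans, which bind collagen fibrils and set their width, are products of mesenchymal cells. Basal keratins build the filaments of stratified epithelia, and interferon-stimulated genes form the antiviral state.

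The lines were close in most of their transcripts. The log2 ratio of M32 over M83, from counts scaled to the total of each library with a prior count of 2 added, had a median of -0.06 over the measured genes, and 10322 of them (93.6%) lay within 2-fold. The central 90% of ratios ran from -0.84 to 0.74. A gene was counted as set apart when the ratio was at least 4-fold and its exact 95% Clopper-Pearson interval, which covers counting error only, left out 2-fold. This held for 94 genes higher in M32 (0.852% of measured genes) and 79 higher in M83 (0.716%), 173 in all (1.57%). At the 2-fold level, 315 genes (2.86%) were higher in M32 and 391 (3.55%) in M83.

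M32 had more transcript of most cholesterol synthesis enzymes, of 5 of 6 measured small leucine-rich proteoglycans, and of some collagen and contractile genes, including Col3a1, Col6a3, Acta2 and Actg2. M83 had more transcript of several basal keratins, EGF family ligands, some immediate early genes and a few antiviral genes. Fdps was 5.86-fold higher in M32 and Col3a1 6.51-fold higher, while Btc was 8.02-fold and Krt5 39.0-fold higher in M83. Cell cycle genes did not separate the lines, with 0 of 45 measured members at 2-fold or more in either direction and a list median log2 ratio of 0.09.

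**Figure D1:**
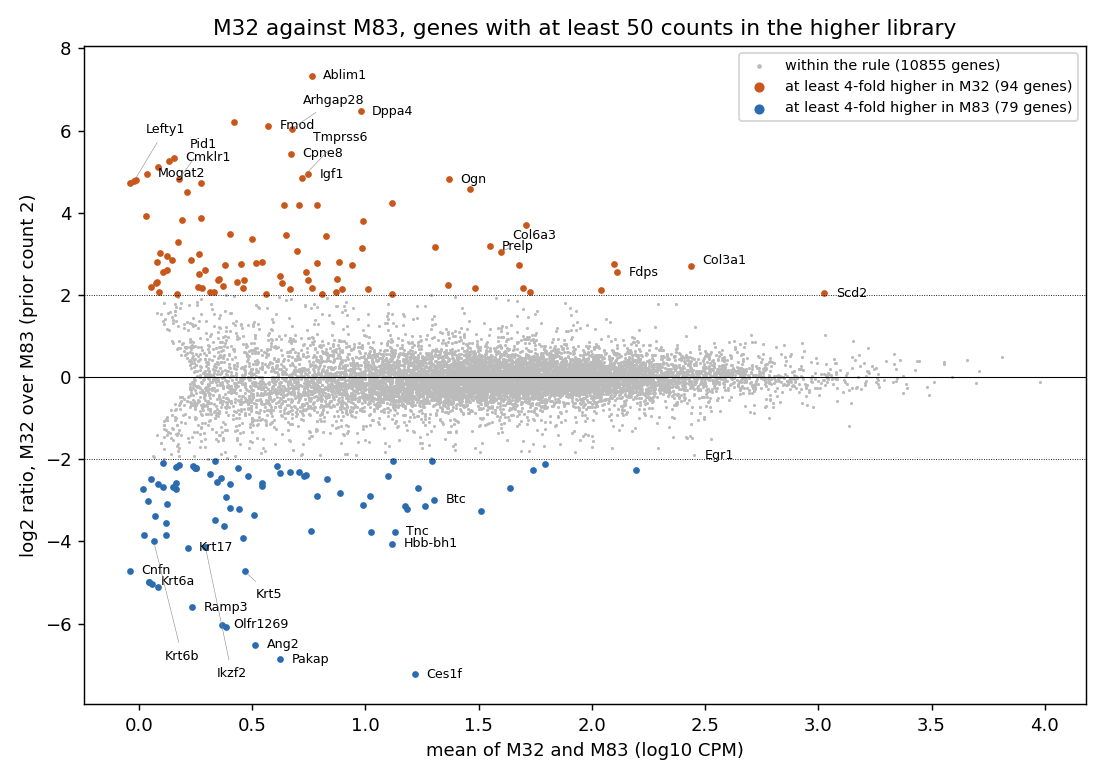
Log2 ratio of M32 over M83 (prior count 2) against the mean level of both libraries (log10 CPM), 1 point per measured gene. Orange points are the 94 genes set apart above in M32, blue points the 79 in M83, grey points all others, and dotted lines mark 4-fold. The cloud is narrow around 0 at all but the lowest levels, with 93.6% of genes within 2-fold.

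The enzymes of cholesterol synthesis were higher in M32 almost throughout the pathway. Of 21 enzymes listed, 20 were measured, 15 were at least 2-fold higher in M32 and none in M83, and 4 (Fdps, Mvd, Idi1 and Hmgcs1) met the 4-fold rule. Among all measured genes, 2.86% were at least 2-fold higher in M32, 3.55% in M83, and 0.852% met the 4-fold rule toward M32. The list's median log2 ratio was 1.33, beside -0.06 for all measured genes, and 19 of 20 members lay above 0, beside 43.1% of measured genes. Summed over the list, M32 had 1936 CPM and M83 701 CPM. Hmgcs1, the cytosolic HMG-CoA synthase at the entry of the pathway, lies on chromosome 13 and Mvd, mevalonate diphosphate decarboxylase, on chromosome 8. Their upstream sequences are given because both genes met the 4-fold rule. Both sequences hold CCAAT boxes. Hmgcs1 also holds a sterol regulatory element, while Mvd has no match to that element. The CCAAT boxes of Hmgcs1 are left in lower case below. The sequences are 250 bases before the RefSeq start (GRCm38.p6), written 5' to 3' on the gene's strand. In Hmgcs1 (chr13:119690101-119690350, plus strand) the capitals mark a sterol regulatory element, TCACNCCAC, at 137 to 129 bases before the start, and in Mvd (chr8:122443423-122443672, minus strand) they mark CCAAT boxes on either strand.
Hmgcs1: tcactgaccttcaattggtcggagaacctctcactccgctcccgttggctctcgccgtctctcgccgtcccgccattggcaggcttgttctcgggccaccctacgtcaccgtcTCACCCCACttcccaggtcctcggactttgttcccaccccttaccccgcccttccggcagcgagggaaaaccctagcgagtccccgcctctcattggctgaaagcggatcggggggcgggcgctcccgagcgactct
Mvd: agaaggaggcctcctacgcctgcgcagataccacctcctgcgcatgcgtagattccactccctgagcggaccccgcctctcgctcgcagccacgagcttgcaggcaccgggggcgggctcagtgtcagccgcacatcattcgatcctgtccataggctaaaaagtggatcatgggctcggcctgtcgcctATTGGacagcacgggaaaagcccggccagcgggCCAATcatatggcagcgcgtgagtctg

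RefSeq promoters of 300 bases (250 before to 50 after the start) matched 16 of the 20 measured enzymes by symbol. The CCAAT letters, on either strand, were in the promoters of 15 of these 16 genes (93.8%), beside 3797 of 8575 measured genes with a promoter (44.3%). TCACNCCAC, on either strand, was in 1 of 16 (6.25%), beside 118 of 8575 (1.38%). A match describes letters in this window and shows no binding.

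Along the pathway, Hmgcs1 had 4874 counts in M32 and 1146 in M83, beside 3666 in M8 and 1485 in control. Its ratio was 4.36 (95% interval 4.09 to 4.66). The kinases of the middle of the pathway differed from one another, with a ratio of 2.71 for Pmvk and 1.69 for Mvk. Mvd, the next step, had 1047 counts in M32 and 227 in M83, beside 491 in M8 and 242 in control, a ratio of 4.73 (4.09 to 5.48). For each of these 4 enzymes M83 had the lowest scaled level of the 4 libraries, close to control for Mvd and Mvk.

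The prenyl diphosphate steps showed the highest ratio of the pathway. Fdps, farnesyl diphosphate synthase (chromosome 3, 89093588 to 89101959), had 6053 counts in M32 and 1059 in M83, beside 4249 in M8 and 1693 in control, a ratio of 5.86 (5.49 to 6.26). Idi1, the isomerase before it, had 2219 in M32 and 503 in M83, beside 2745 in M8 and 1013 in control. M32 and M8 were thus both above control for these genes, and M83 was below it. Ggps1, which makes the geranylgeranyl chain for protein prenylation, had a ratio of only 1.43, so the branch outside sterols was less far apart.

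Among the committed sterol enzymes, Fdft1 (squalene synthase) was 3.68-fold and Nsdhl 3.64-fold higher in M32. Cyp51, the lanosterol demethylase, had 8256 counts in M32 and 2474 in M83, beside 8094 in M8 and 2953 in control. Sqle, the squalene epoxidase, was 2.34-fold higher and Dhcr7, the last step to cholesterol, 2.09-fold. Ebp, a sterol isomerase, was the only measured enzyme below 0, with 1001 counts in M32 and 1344 in M83. Part of the sequence of some members is also found in other genes, as counted in 31-base words of their transcripts: 31.9% for Fdft1, 27.9% for Fdps, 27.1% for Idi1 and 13.1% for Hmgcs1, but 0 for Mvd. Reads of such stretches could be assigned to either gene.

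Genes that sense and import sterol were partly on the same side. Srebf2, which encodes SREBP2 itself, had 9905 counts in M32 and 2982 in M83, beside 8457 in M8 and 5115 in control, a ratio of 3.41 (3.27 to 3.55). Insig1, the feedback protein that retains the SREBP escort in the endoplasmic reticulum, had 2278 in M32 and 800 in M83, beside 1429 in M8 and 558 in control. Stard4, a sterol carrier, was 3.51-fold higher and Mylip, a ubiquitin ligase induced by sterol, 4.13-fold. Npc1, which releases sterol from lysosomes, had a ratio of 0.742. In this list 4 of 13 measured members were at least 2-fold higher in M32 and none in M83, with a median of 0.61. The shares among all measured genes were 2.86% and 3.55%.

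Fatty acid genes differed from one another. Scd2, a stearoyl-CoA desaturase, had 46722 counts in M32 and 11631 in M83, beside 19735 in M8 and 14680 in control, so that M32 stood above every other library. Its ratio was 4.12 (4.04 to 4.20). The desaturases Fads2 and Fads1 were 2.41-fold and 2.33-fold higher in M32, and the elongase Elovl6 2.19-fold. The related Scd1, Elovl5 and Elovl1 had ratios of 1.53, 1.36 and 1.25. Among genes that supply or build the chain, Acacb had 1.36, Acly 1.18, Fasn 0.877 and Acaca 0.873, so the steps overlapped. In the list of fatty acid synthesis and desaturation, 4 of 14 measured members were at least 2-fold higher in M32 and none in M83. Of 19 measured fatty acid oxidation genes, none was 2-fold higher in M32 and 1 was in M83. Among all measured genes the shares were 2.86% for M32 and 3.55% for M83.

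**Figure D2:**
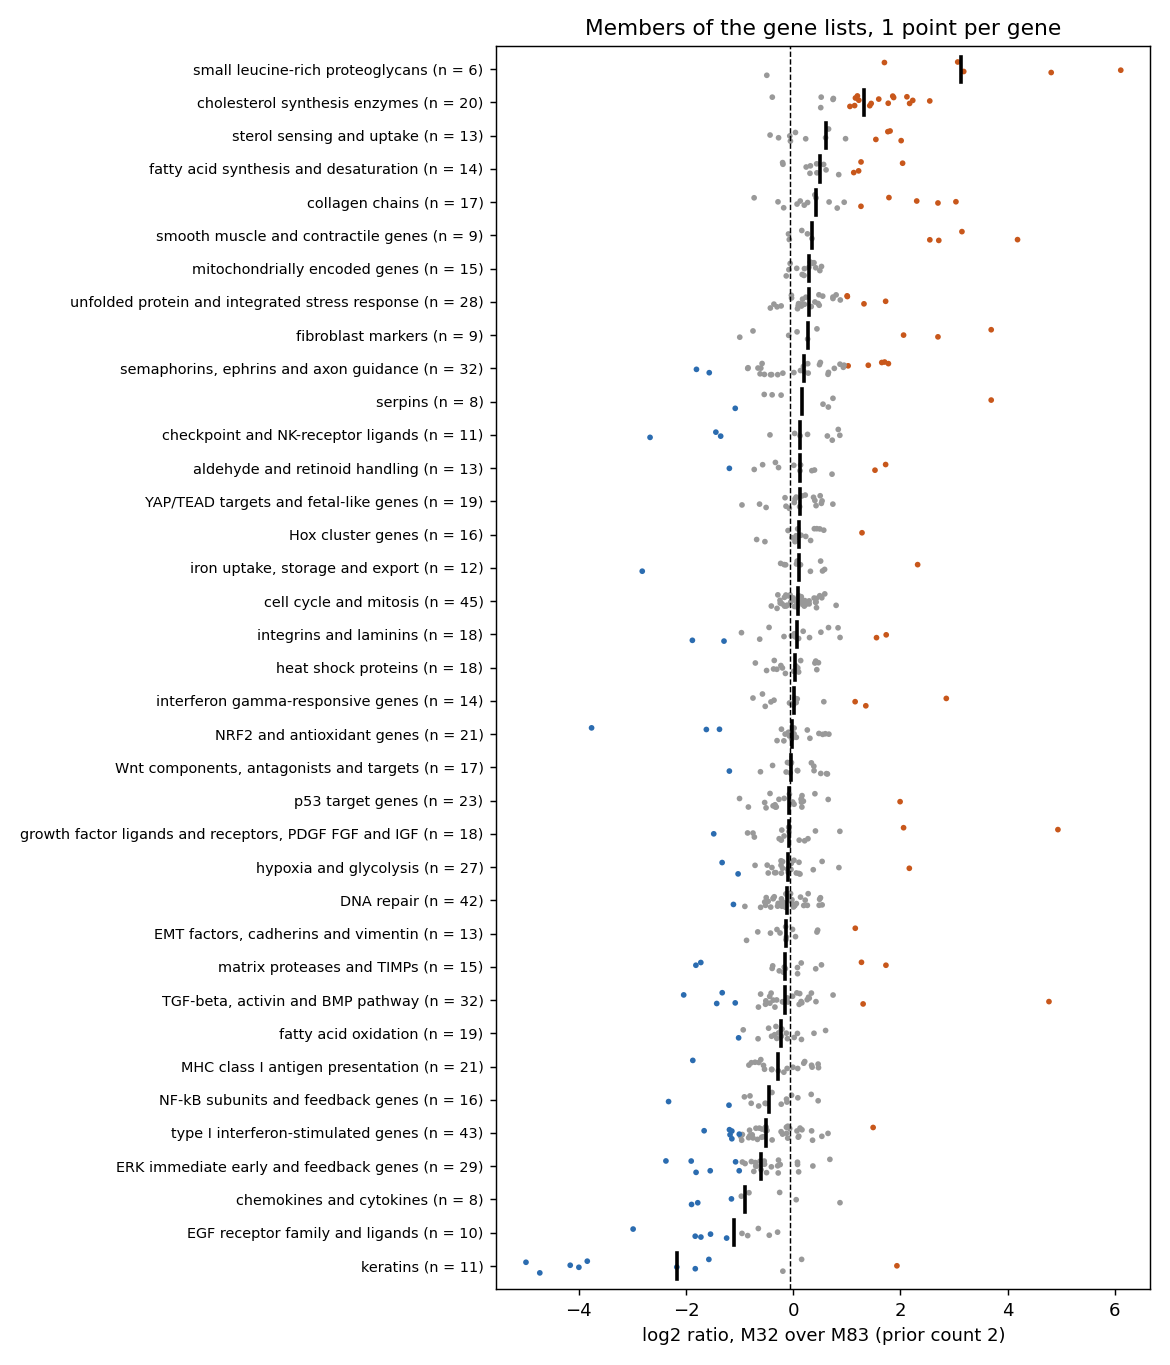
Log2 ratio of M32 over M83 for the measured members of each gene list with at least 6 of them, 1 point per gene; bars are list medians, and the dashed line is the median of all measured genes (-0.06). Orange and blue mark genes at least 2-fold higher in M32 and in M83. The small leucine-rich proteoglycans (3.13, with 4 of 6 measured through M32 only) and the cholesterol enzymes (1.33) lie furthest right. The keratins (-2.17, with 6 of 11 measured through M83 only) lie furthest left.

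Small leucine-rich proteoglycans had some of the highest ratios toward M32. Of 14 listed, 6 were measured, 5 were at least 2-fold higher in M32 and 4 met the 4-fold rule, with a median log2 ratio of 3.13. Of the 6, 4 reached 50 counts in M32 only and so entered through that line. Over the 2 with at least 50 counts in both lines the median was 1.35, and 1 was at least 2-fold higher in M32. Matrix proteases and their inhibitors went both ways. The inhibitors Timp1 and Timp3 were 3.30-fold and 3.69-fold higher in M83, where alone Timp3 reached 50 counts. The proteases Mmp19 and Adamts1 were 3.39-fold and 2.42-fold higher in M32. Ogn, osteoglycin (chromosome 13, 49608046 to 49624501), had 1233 counts in M32 and 43 in M83, beside 184 in M8 and 45 in control, a ratio of 29.4 (21.7 to 40.8). Fmod, fibromodulin, had 202 in M32 and 1 in M83, beside 50 in M8 and 4 in control; with 1 count its ratio of 207 has an interval from 36.8 to 8223. M32 was the highest library for both, while M83 and control were close for Ogn and both near 0 for Fmod.

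Prelp, an anchor between basement membrane and connective tissue, had 1751 counts in M32 and 196 in M83, beside 590 in M8 and 49 in control. Omd, osteomodulin, was 8.94-fold higher in M32 and Bgn, biglycan, 3.36-fold. Podnl1 went the other way, with 615 counts in M32 and 887 in M83. Decorin (Dcn) and lumican (Lum), which mark many fibroblasts, did not reach 50 counts in either line.

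Collagens differed by type. Col3a1, the type III fibrillar chain (chromosome 1, 45311538 to 45349706), had 12998 counts in M32 and 2047 in M83, beside 7748 in M8 and 1748 in control. Col6a3, of the microfibrillar type VI, had 1927 in M32 and 239 in M83, beside 1042 in M8 and 168 in control, a ratio of 8.27 (7.23 to 9.50). Its partners Col6a2 and Col6a1 had ratios of 1.77 and 1.59, so the 3 chains differed in ratio. The type V chains Col5a3 and Col5a2 were 5.74-fold and 3.65-fold higher in M32, at up to 89 counts. Col1a1, the main type I chain, was even, with 33405 counts in M32 and 32552 in M83, and the basement membrane chains Col4a1 and Col4a2 had ratios of 0.885 and 0.823. In all, 14 of 17 measured collagen genes lay above 0, beside 43.1% of measured genes. At least 2-fold higher in M32 were 5, beside 2.86% of all measured genes, and none in M83, beside 3.55%. Of the 17, 2 reached 50 counts in M32 only. Among the 15 with at least 50 counts in both lines, 3 were at least 2-fold higher in M32.

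Contractile genes were split. Actg2, the gamma actin of enteric smooth muscle, had 318 counts in M32 and 16 in M83, beside 348 in M8 and 14 in control. Acta2, the alpha actin of smooth muscle and myofibroblasts, had 474 in M32 and 53 in M83, beside 199 in M8 and 6 in control, so that M83 was itself above control. Mylk, the myosin light chain kinase, and Des, desmin, were 6.76-fold and 6.95-fold higher in M32. These 4 met the 4-fold rule, while the other 5 measured members, Tpm1, Tpm2, Cnn2, Smtn and Cald1, had ratios between 0.942 and 1.28. Of the 4, Actg2 and Des reached 50 counts in M32 only and so entered through that line. Of the 7 members with at least 50 counts in both lines, 2 were at least 2-fold higher in M32. The share among all measured genes was 2.86%.

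Among fibroblast markers, Serpinf1 (the secreted factor PEDF) had 2587 counts in M32 and 203 in M83, beside 1390 in M8 and 508 in control. Pdgfrb, a receptor for PDGF on mesenchymal cells, had 2341 in M32 and 574 in M83, beside 1250 in M8 and 424 in control. The sister receptor Pdgfra was lower in M32, at 196 counts beside 339, and Thy1 was at 0 in both lines. Of 9 measured fibroblast markers, 3 were at least 2-fold higher in M32 (Serpinf1, Col3a1 and Pdgfrb) and none in M83, with a median of 0.27. The shares among all measured genes were 2.86% and 3.55%. Fbln2, fibulin 2, came close to 2-fold on the other side, with 11004 counts in M32 and 22494 in M83, with a ratio of 1.99 (1.95 to 2.04) toward M83. The part of any other cell type in these values was not tested.

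Several of the genes furthest apart were unread in one line. Ablim1, which encodes an actin-binding LIM protein (chromosome 19, 57032733 to 57314919), had 316 counts in M32 and 0 in M83, beside 26 in M8 and 0 in control, and was at least 108-fold higher when 3 counts are allowed in M83. Arhgap28, a GTPase-activating protein, had 256 in M32 and 2 in M83, beside 32 in M8 and 2 in control, a ratio of 131 (36.0 to 1090). Both were thus near 0 in control and in M83. Cmklr1, the chemerin receptor, had 78 counts in M32 and 0 in M83, beside 23 in M8 and 0 in control, at least 26.7-fold higher.

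In other such genes it was M83 that stood apart from the rest. Dppa4, a chromatin protein of pluripotent cells, had 518 counts in M32 and 4 in M83, beside 518 in M8 and 185 in control; 40.1% of its words occur in other genes. Cpne8, a copine, had 253 in M32 and 4 in M83, beside 200 in M8 and 72 in control. Pid1, an adaptor that acts on insulin signalling, had 81 in M32 and 1 in M83, beside 131 in M8 and 64 in control, a ratio of 83.1 (14.5 to 3321). Lefty1, a secreted Nodal antagonist, had 52 in M32 and 0 in M83, beside 94 in M8 and 78 in control, at least 17.8-fold higher, with 25.7% of its words shared.

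Igf1, Tmprss6 and Mogat2 also had high ratios toward M32. Igf1, insulin-like growth factor 1 (chromosome 10, 87858265 to 87937042), had 298 counts in M32 and 8 in M83, beside 52 in M8 and 20 in control, a ratio of 38.2 (19.1 to 89.3). Tmprss6, a protease that restrains hepcidin, had 279 in M32 and 8 in M83, beside 106 in M8 and 31 in control. Mogat2, a monoacylglycerol acyltransferase of the gut, had 59 in M32 and 0 in M83, beside 14 in M8 and 4 in control, at least 20.2-fold higher. For all 3, M32 was the highest library and control lay between the lines.

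Several keratins had more counts in M83. Of 20 listed, 11 were measured, and 6 of these (Krt5, Krt6a, Krt6b, Krt14, Krt16 and Krt17) reached 50 counts in M83 only, so that they entered through the line where they are high and the list's counts lend no support. As a description, 8 of the 11 were at least 2-fold higher in M83 and 1 in M32, 6 met the 4-fold rule, and the median log2 ratio was -2.17. Over the 4 keratins with at least 50 counts in both lines, which are also those left by a minimum of 200 counts, the median was -0.88 and 2 were at least 2-fold higher in M83. Krt5 (chromosome 15, 101707070 to 101712898) and Krt14, which pair in basal layers of stratified epithelia, were both higher in M83. Krt5 had 4 counts in M32 and 160 in M83, beside 2 in M8 and 28 in control, a ratio of 39.0 (14.9 to 145) toward M83. Krt14 had 39 in M32 and 187 in M83, beside 33 in M8 and 40 in control, with 28.2% of its words shared.

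The stress keratins, induced in wounded or proliferating epidermis, were low in all libraries and highest in M83. There they had from 2.21 CPM (Krt6a) to 3.18 CPM (Krt17), beside 32.5 CPM for Krt18. Krt17 had 3 counts in M32 and 89 in M83, beside 0 in M8 and 11 in control, a ratio of 28.9 (9.58 to 143). Krt16 had 3 in M32 and 71 in M83, with a ratio of 23.1 (7.58 to 115), and Krt6b 2 and 63, a ratio of 30.7 (8.16 to 259). Krt6a was at 0 in M32 and at 62 counts in M83, at least 20.2-fold higher. Since 62.0% of the words of Krt6a, 57.0% of Krt6b and 51.9% of Krt16 occur in other genes, reads may be divided among keratin copies, and single values of these 3 are uncertain; for Krt5 and Krt17 the shares were 15.8% and 15.8%.

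Keratins of simple epithelia did not form one block with these. Krt20, of differentiated gut epithelium, had 1008 counts in M32 and 3667 in M83, and Krt7, of ducts, went the opposite way, with 181 in M32 and 47 in M83. Krt18 was even, at 992 and 911, and its partner Krt8 was nearly unread, at 0 and 5. Summed over 9 epithelial and intestinal markers, M32 had 2019 counts and M83 4646, nearly all from Krt18 and Krt20, with Epcam, Cdh1 and Cdx2 at 0. Cnfn, a gene of the cornified envelope, was at 0 in M32 and 51 in M83, beside 24 in M8 and 2 in control, at least 16.6-fold higher.

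The list of the EGF receptor family, its ligands and regulators lay to the side of M83. None of its 10 measured members, 7 of them ligands, lay above 0, beside 43.1% of all measured genes. At least 2-fold higher in M83 were 5, beside 3.55% of all measured genes, and the median log2 ratio was -1.10. Btc, betacellulin (chromosome 5, 91357261 to 91402994), had 122 counts in M32 and 1004 in M83, beside 629 in M8 and 416 in control, a ratio of 8.02 (6.64 to 9.76) toward M83. Areg, amphiregulin, had 146 in M32 and 536 in M83, beside 685 in M8 and 637 in control. Hbegf had 1234 in M32 and 3685 in M83, beside 3371 in M8 and 2736 in control.

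For Areg and Hbegf it was therefore M32 that lay below the other libraries, while for Btc the lines lay on either side of control. Nrg2, a neuregulin, was 3.31-fold higher in M83 and Ereg, epiregulin, 1.80-fold. Errfi1, an inhibitor made in response to the receptor, had 2514 counts in M32 and 6092 in M83, beside 6760 in M8 and 6964 in control. The receptor genes themselves gave little: Egfr had 6 counts in each line, Erbb4 at most 4, and Erbb2 had 938 in M32 and 1176 in M83.

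Immediate early and feedback genes of the ERK pathway lay on the same side. Of 32 listed, 29 were measured, 6 were at least 2-fold higher in M83 and none in M32, beside 3.55% and 2.86% of all measured genes. In the list 24 members lay below 0, beside 56.9% of measured genes, and the median was -0.60. Of the 28 with at least 50 counts in both lines, 5 were at least 2-fold higher in M83. Egr1, a zinc finger factor made within minutes of a stimulus, had 3253 counts in M32 and 12461 in M83, beside 8137 in M8 and 18871 in control, a ratio of 3.73 (3.59 to 3.88) toward M83. Egr3 had 47 in M32 and 258 in M83, beside 292 in M8 and 240 in control, and was the member that met the 4-fold rule. In both genes M32 was the lowest library.

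Fosb had 690 counts in M32 and 2070 in M83, beside 3485 in M8 and 2207 in control, and Fos and Junb were 2.11-fold and 2.01-fold higher in M83. Dusp5, a nuclear phosphatase of ERK with 21.2% of its words shared, had 641 in M32 and 2310 in M83, beside 2398 in M8 and 1641 in control. The related Dusp6 and Dusp4 were 1.72-fold and 1.66-fold higher in M83. Etv5, an ETS factor, was the member furthest to the other side, at 1573 counts in M32 and 1002 in M83, and Spry4, Spry2 and Myc stayed under 2-fold. Ccnd1, cyclin D1, had 18624 counts in M32 and 30651 in M83.

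The sequence before Dusp5 is given because it was 1 of 2 measured members, with Srf, that held a CArG box, the site of serum response factor, in the 300-base promoter. That is 2 of 18 members matched in RefSeq (11.1%), beside 1.46% of measured genes with a promoter. The stretch on the plus strand of chr19:53528895-53529108 (GRCm38.p6) ends where GENCODE places the first exon, and the capitals mark adjacent CArG boxes, at 82 to 73 and 72 to 63 bases before the RefSeq start.
Dusp5: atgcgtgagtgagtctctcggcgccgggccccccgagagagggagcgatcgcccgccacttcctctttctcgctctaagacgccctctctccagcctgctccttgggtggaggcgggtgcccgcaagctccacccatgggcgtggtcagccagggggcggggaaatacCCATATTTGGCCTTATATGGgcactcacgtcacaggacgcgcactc

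**Figure D3:**
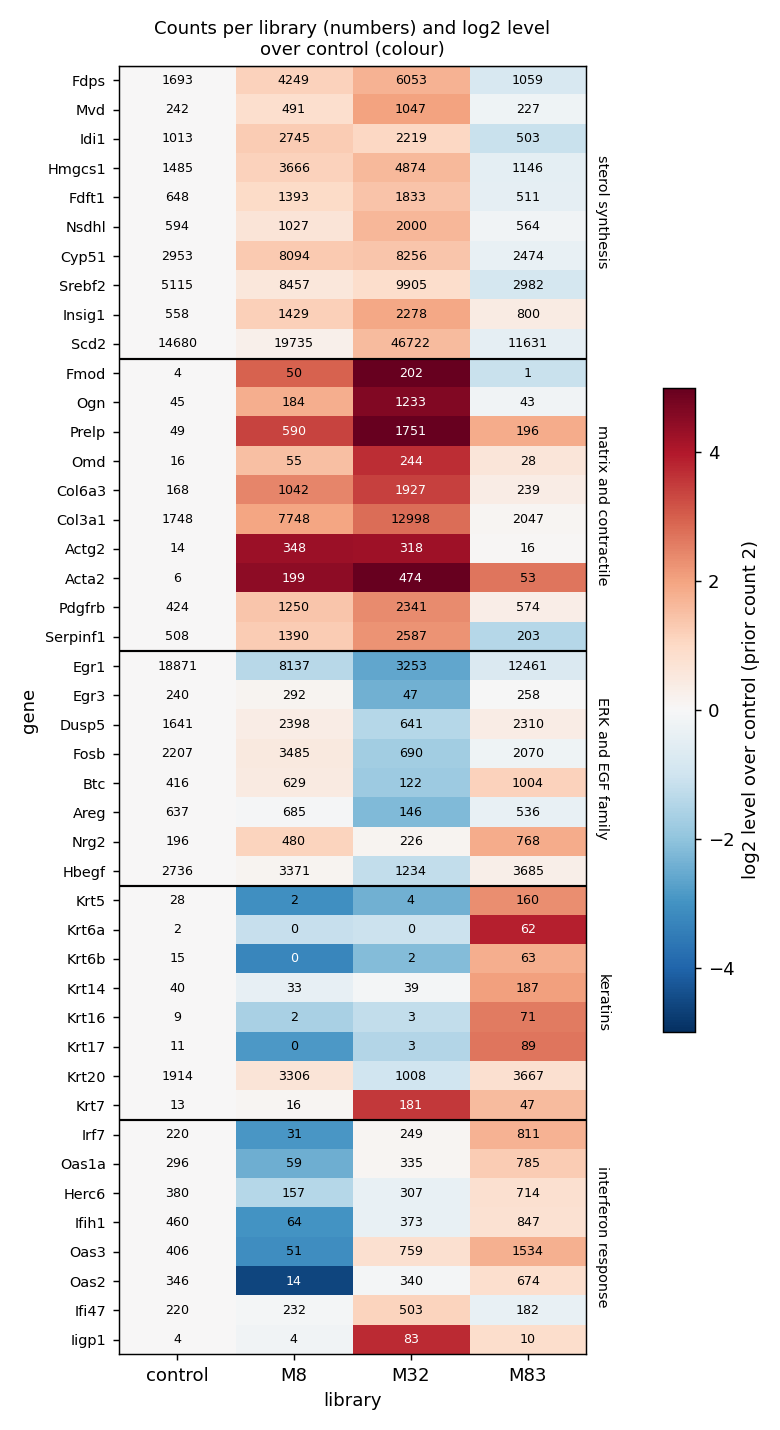
Counts per library (numbers) and log2 level over control (colour, prior count 2, scale ending at 5 in either direction) for members of 5 groups of genes, in control, M8, M32 and M83. M32 and M8 share the warm side for sterol and matrix genes, M32 alone is on the cold side for Dusp5 and Btc, and M8 is lowest for most interferon genes.

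Interferon-stimulated genes leaned to M83 by small ratios. Of 44 listed, 43 were measured, 6 were at least 2-fold higher in M83 and 1 in M32, beside 3.55% and 2.86% of all measured genes. None met the 4-fold rule, and the median was -0.51 with 10 members above 0, beside 43.1% of measured genes. Of the 43, 2 (Zbp1 and Ifit3b) reached 50 counts in M83 only and 1 in M32 only. Of the 40 with at least 50 counts in both lines, 5 were at least 2-fold higher in M83 and 1 in M32. Irf7, the master factor of the type I response, had 249 counts in M32 and 811 in M83, beside 31 in M8 and 220 in control, a ratio of 3.18 (2.75 to 3.68) toward M83. Ifih1, the RNA sensor MDA5, had 373 in M32 and 847 in M83, beside 64 in M8 and 460 in control. M32 was close to control for both, M83 above it and M8 far below.

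Oas1a, an RNA-activated synthetase, had 335 counts in M32 and 785 in M83, beside 59 in M8 and 296 in control, although 68.8% of its words occur in other genes of its cluster or elsewhere. Herc6 and Ifit3b (55.3% of words shared) were each 2.27-fold higher in M83, and Ifitm3, which blocks viral entry, had 2929 counts in M32 and 6026 in M83. Other members were even: Isg15 had 277 in M32 and 297 in M83, Ifit1 401 and 441, and Stat2 566 and 622.

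The promoter of Oas1a is shown because it holds a motif found in some, but not most, of the antiviral genes searched. The core of the interferon-stimulated response element, GAAA followed after any 2 bases by GAAA, was found on either strand in 14 of 31 matched members (45.2%), beside 3.81% of measured genes with a promoter. The sequence is chr5:120907526-120907775 (GRCm38.p6, minus strand), with overlapping matches in capitals at 20 to 11 and 14 to 5 bases before the RefSeq start.
Oas1a: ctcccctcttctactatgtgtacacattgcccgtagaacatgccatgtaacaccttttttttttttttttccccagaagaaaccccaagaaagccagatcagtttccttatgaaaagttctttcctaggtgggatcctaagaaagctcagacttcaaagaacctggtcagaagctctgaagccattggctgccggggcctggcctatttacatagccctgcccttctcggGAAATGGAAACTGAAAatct

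The GTPases that answer mainly to interferon gamma did not follow Irf7. Iigp1 had 83 counts in M32 and 10 in M83, beside 4 in M8 and 4 in control, a ratio of 8.51 (4.40 to 18.4). Ifi47, counted with the type I list, had 503 in M32 and 182 in M83, beside 232 in M8 and 220 in control. Tgtp2 was 2.26-fold higher in M32, but 90.5% of its words are shared. In the interferon gamma list 3 of 14 measured members were at least 2-fold higher in M32 and none in M83, with a median of 0.02. The shares among all measured genes were 2.86% and 3.55%. Of the 14, 2 reached 50 counts in M32 only. Of the 12 with at least 50 counts in both lines, 1 was at least 2-fold higher in M32. Most members thus did not differ by 2-fold.

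Genes of antigen display and immune ligands showed moderate values. B2m, the common light chain of MHC class I, had 7269 counts in M32 and 13202 in M83, beside 7024 in M8 and 8725 in control, a ratio of 1.77 (1.72 to 1.82) toward M83. Tapbpl, a peptide editor, was 3.71-fold higher in M83, the 1 member of 21 past 2-fold, while the transporters Tap1 and Tap2 had ratios of 1.39 and 1.38 toward M32. Checkpoint and NK-receptor ligands did not lie to one side: 11 were measured, 7 lay above 0, the median was 0.13, and 3 were at least 2-fold higher in M83 and none in M32. Among all measured genes, 3.55% were at least 2-fold higher in M83 and 2.86% in M32. Of the 11, 2 (Cd274 and Vtcn1) reached 50 counts in M83 only and 1 in M32 only. Over the 8 with at least 50 counts in both lines the median was 0.20, and 1 was at least 2-fold higher in M83. The 3 members past 2-fold are given here. Cd274, which encodes PD-L1, had 29 counts in M32 and 79 in M83, beside 9 in M8 and 41 in control. Vtcn1, the inhibitory ligand B7-H4, had 8 in M32 and 63 in M83, and Pvr, a ligand of NK and T cell receptors, 1337 and 3725. On the other side, Nectin2 and Cd276 had ratios of 1.83 and 1.66 toward M32.

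Of 31 chemokines and cytokines, 8 were measured, with a median of -0.89, 8 were at 0 in both lines, and the others stayed under 50 counts. Cxcl1, a neutrophil attractant, had 72 counts in M32 and 280 in M83, beside 253 in M8 and 324 in control. Il11, a cytokine of stromal cells, had 58 and 209. Tnfaip3, a brake on NF-kB, was 2.29-fold and Traf1, an adaptor, 5.18-fold higher in M83, and these were the 2 of 16 measured NF-kB genes past 2-fold. Of the 16, 2 reached 50 counts in M83 only. Of the 14 with at least 50 counts in both lines, 1 was at least 2-fold higher in M83. The share among all measured genes was 3.55%.

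The gene with the highest fitted ratio toward M83 was Ces1f, a carboxylesterase that hydrolyses esters of lipids and drugs (chromosome 8, 93256236 to 93279747). It had 4 counts in M32 and 921 in M83, beside 107 in M8 and 32 in control, a ratio of 224.5 (87.4 to 826). Its relative Ces1g went the other way, with 1560 in M32 and 760 in M83. Hbb-bh1, an embryonic beta-like globin, had 39 in M32 and 695 in M83, beside 108 in M8 and 35 in control, while the erythroid markers Hba-a1 and Hbb-bs had at most 8 counts.

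Genes at 0 in M32 made up a further set. Ang2, an angiogenin-family ribonuclease, had 183 counts in M83, beside 34 in M8 and 0 in control, at least 59.5-fold higher. Ramp3, which pairs with the calcitonin-like receptor, had 96 in M83, beside 41 in M8 and 4 in control, at least 31.2-fold higher. Olfr1269, an olfactory receptor gene, was read in M83 only, with 130 counts. Pakap was likewise at 235 counts in M83 and 0 elsewhere, but 97.8% of its words occur in other genes and 81.5% of its exons overlap another gene, so its value is uncertain. Ikzf2, the zinc finger factor Helios, had 4 counts in M32 and 106 in M83, beside 10 in M8 and 10 in control.

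Regulators chosen after their values were seen add to this side. Sox9, a factor of progenitor and cartilage cells, had 80 counts in M32 and 774 in M83, beside 433 in M8 and 231 in control, a ratio of 9.43 (7.49 to 12). Pthlh, parathyroid hormone-like hormone, had 82 in M32 and 755 in M83, beside 386 in M8 and 186 in control. Tnc, tenascin C, a matrix protein of wounds, had 49 in M32 and 706 in M83, beside 602 in M8 and 138 in control. Deptor, an inhibitor of mTOR, had 101 in M32 and 926 in M83, beside 201 in M8 and 125 in control. In these 4 genes M32 was the lowest library and M83 the highest.

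The place of the libraries that the comparison did not use was read for each gene set apart. For the 94 genes higher in M32, control was nearer to M83 in 60 and nearer to M32 in 34, while M8 was nearer to M32 in 67. For the 79 higher in M83, control was nearer to M32 in 55 and to M83 in 24, and M8 was nearer to M32 in 36 and to M83 in 43. Control lay between the lines in 69 of the 94 and 57 of the 79. These genes were picked for a wide gap between the lines, which favours a place between them. The counts of placement are therefore descriptions only. Over the 11028 measured genes, which do not stand for replicates, log2 CPM correlated with a Pearson's r of 0.956 between M32 and M83, in a range from 0.954 (M8 and M83) to 0.968 (control and M32).

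Whole chromosomes also lay to one side. On chromosome 16, 300 of 334 measured genes lay above 0, with a median log2 ratio of 0.42, while the medians over control were -0.05 for M32 and -0.49 for M83. On chromosome 6, 101 of 530 lay above 0, with a median of -0.36, and the medians over control were -0.24 for M32 and 0.12 for M83. The remaining autosomes had medians between -0.20 and 0.27, the latter on chromosome 15. Within chromosome 6 the shift grew toward the distal end: in the lowest run of 41 neighbouring genes, from Crebl2 to Med21 (134830154 to 146650732), the median was -0.66 and 38 genes lay below 0.

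The part of the chromosome shifts in single gene values was not tested one by one; with each chromosome's median subtracted, the list medians became 0.57 for the collagens and -0.21 for the checkpoint ligands, from 0.43 and 0.13.

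**Figure D4:**
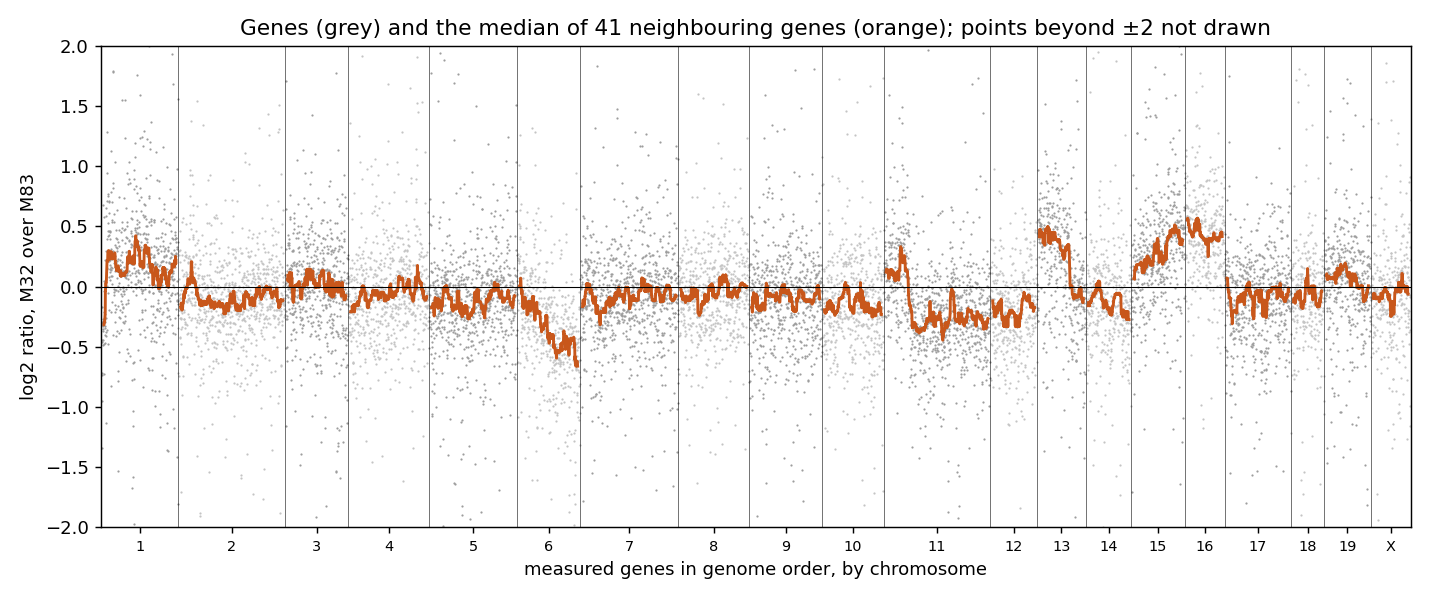
Log2 ratio of M32 over M83 for measured genes in genome order (grey points, those beyond 2 not drawn) and the running median of 41 neighbouring genes (orange). The line stays above 0 over chromosome 16, rises along chromosome 15, and falls along chromosome 6 to -0.66.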

How the data were processed

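Poly(A) RNA of 4 samples was sequenced after NEBNext library preparation, per the labels' protocols. The authors deposited a single table of counts, whole and not normalised, with 1 column per sample. Per the submitters' processing notes, GRCm38 was the build. Aligner, counting tool, annotation and strand setting: not given in the sources used here, so reads of overlapping genes cannot be told apart. Positions come from GENCODE vM21 (41434 of 41457 identifiers found), promoters from RefSeq (GRCm38.p6). Counts of M32 and M83 were scaled to total count, and log2 ratios used a prior count of 2. With 1 library per line there is no test. A gene low in one line was measured through the other, so list counts are descriptions. A gene was set apart when at least 4-fold different, with at least 50 counts in the higher library and an exact 95% Clopper-Pearson interval of the ratio leaving out 2-fold. A count of 0 allows up to 3 counts. Reads carry no molecular identifiers, so intervals and floors cover counting error only. Shared sequence is the percentage of a gene's 31-base transcript words found in other genes.

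The text names the 12 genes per direction with the largest ratios that have no clone-based or predicted name, up to 5 members of each of 42 gene lists, and further members of the cholesterol, interferon and ERK lists. Any other gene was picked with its values in view. The members and lists were chosen with earlier results of these data known. The alternatives were other scalings (edgeR 4.0.16, DESeq2 1.42.0, R 4.3.3), count minimums, prior counts, folds and corrections. The scripts (Python 3.11.15, scipy 1.17.1) were tested on simulated data.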

Additional observations from a re-analysis of the deposited data

How the results depend on the processing

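No paired analysis was possible because each line has 1 library and the comparison comes from no test. The counts of 94 genes higher in M32 and 79 higher in M83 moved with the count minimum, to 165 and 143 at 20 counts, 45 and 28 at 200 counts, and 248 and 231 with no minimum, and an 8-fold rule gave 40 and 36. TMM factors gave 98 and 76, DESeq2 size factors 99 and 76. Leaving out genes that share at least 20% of their words, an alternative chosen after seeing the data, gave 71 and 56. The count minimums and the shared-word filter change the number of genes read by construction.

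List medians that moved did so as follows. At 20 counts they became -0.95 for the EGF family, 0.74 for contractile genes, -3.00 for keratins and 0.36 for fibroblast markers. At 200 counts they became -0.88 for keratins, 0.36 for fibroblast markers, 0.083 for matrix proteases (from -0.14, a change of sign) and -0.22 for serpins (from 0.17, a change of sign). With the chromosome median subtracted, also chosen after seeing the data, they became -0.21 for checkpoint ligands (from 0.13, a change of sign), 0.57 for collagens, -0.028 for matrix proteases, -0.050 for serpins (a change of sign) and 0.37 for fibroblast markers. Cell cycle genes moved to 0.15 with DESeq2 size factors. Mitochondrially encoded genes moved from 0.29 to 0.35 (TMM), 0.36 (DESeq2) and 0.33 (GC bins subtracted). The cause of these moves was not tested. The other 241 list values and all 120 chromosome values moved by no more than the median counting-error margin (the 95% interval's reach to one side, log2) of the genes behind them. TMM and DESeq2 scaling moved the median of all measured genes from -0.06 to -0.00462 and 0.00125. With 1 library per line, differences between cultures cannot be told apart from differences between lines.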

Other observations

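Some members of gene groups not described above also differed between the lines. Among all measured genes, 2.86% were at least 2-fold higher in M32 and 3.55% in M83. In the list of the unfolded protein and integrated stress responses, 4 of 28 measured members were at least 2-fold higher in M32 and none in M83. These were Ddit4, Trib3, Atf5 and Asns, and the list's median log2 ratio was 0.29. Other members were closer or leaned to M83, with ratios of 1.26 for Hspa5, 1.06 for Xbp1, 0.978 for Hsp90b1, 0.780 for Dnajb9 and 0.745 for Edem1. Ddit4, an inhibitor of mTOR, had 769 counts in M32 and 237 in M83, beside 726 in M8 and 419 in control. Trib3, a pseudokinase of the stress response, had 2319 in M32 and 950 in M83, beside 2090 in M8 and 1059 in control. Asns, asparagine synthetase, had 9489 in M32 and 4839 in M83, so that M83 was the lowest of the 4 libraries, which had 11224 in M8 and 10572 in control.

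Receptors and ligands of axon guidance were split. The ephrin receptor Ephb3 was 3.46-fold, its ligand Efnb1 3.32-fold and Ephb2 3.15-fold higher in M32, while the plexin Plxna2 was 3.50-fold and Sema6d 3.02-fold higher in M83. Iron genes also went both ways: Cp, the ferroxidase ceruloplasmin, had 125 counts in M32 and 24 in M83, and Scara5, a ferritin receptor, had 51 in M32 and 380 in M83. Mdm2, the ligase of p53, had 4191 in M32 and 8594 in M83, while Cdkn1a had 6756 and 8319 and Trp53 itself 4253 and 4387.

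Some genes set apart were neighbours on the chromosome, chosen after their values were seen. Omd and Ogn lie 15.2 kb apart on chromosome 13 and were both higher in M32, as were Prelp and Fmod, 115.8 kb apart on chromosome 1. Krt6b, Krt6a and Krt5 lie in a row on chromosome 15, and Krt14, Krt16 and Krt17 on chromosome 11, all higher in M83. Akr1c14 and Akr1c18, aldo-keto reductase genes 41.9 kb apart on chromosome 13, lay in opposite directions, with 681 counts in M32 and 35 in M83 for Akr1c14, and 8 in M32 and 153 in M83 for Akr1c18.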
